A study of Mus musculus with 6 samples.

Results

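T cells and natural killer (NK) cells in the colonic mucosa were followed through 34 genes that encode their antigen receptor, its signalling proteins, and their regulatory, helper and cytotoxic products. The genes were chosen by symbol, and 32 of the 34 had a row with a single platform gene symbol, among 23521 such rows covering 22180 genes. Cd247 and Lck are not analysed here. Each gene is represented by its brightest row, and Gata3 was the only member with another one.

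RNA came from normal colonic mucosa beside tumours of 6 male mice congenic on BALB/c, with 1 Affymetrix Mouse Gene 2.0 ST array per mouse. Of these, 4 were wild type (WT, Mthfd1S+/+) and 2 were Mthfd1S+/-, heterozygous for a deficiency in the synthetase activity of the folate enzyme MTHFD1. Every mouse, WT included, had been given the carcinogen azoxymethane (AOM) at 6 mg/kg and then dextran sulfate sodium (DSS, a detergent-like polymer that wounds the gut lining) at 3% in 2 cycles of 4 days, 1 and 4 weeks later. No mouse without AOM and DSS is in these groups, and the mice were killed 13 weeks after AOM. The stated age is 7 months, although AOM is said to have been given at 3 months. Values are log2 expression values as deposited, and differences are Mthfd1S+/- minus WT on that scale.

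T cells read antigen through a receptor whose signal runs through the CD3 chains and adaptor proteins such as LAT. Helper T cells carry CD4, cytotoxic T cells carry CD8 and kill with perforin and granzymes, and NK cells kill without an antigen receptor of that kind. Regulatory T cells, marked by the transcription factor FOXP3, restrain the others and are abundant in the colon. Many cytotoxic T cells of the gut sit between epithelial cells, held there by the integrin chain that Itgae encodes.

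The arrays had medians of 5.48 to 5.53, and correlations between arrays were 0.986 to 0.990 across all rows. The targeted gene, Mthfd1, ran from 7.50 to 7.75 in WT mice and read 7.96 and 7.63 in the Mthfd1S+/- mice (difference 0.17 ± 0.12 SE, adjusted p 0.890 in limma), so its level did not separate the genotypes. Epithelial markers were bright, with Epcam at 11.3 to 11.5 and Muc2 at 13.4 to 13.5. Smooth muscle genes were bright too, with Acta2 at 12.5 to 12.8 and Myh11 at 11.4 to 12.0. The 16 smooth muscle markers were all higher in Mthfd1S+/- mucosa, where 54.0% of all rows were higher, with list means of -0.26 to 0.086 in WT mice and -0.052 and 0.44 in Mthfd1S+/- mice 1 and 2. Fibroblast markers were higher in 14 of 14 and neuron and glia markers in 13 of 14, while 12 of 15 epithelial markers were lower. The part of these in the results below was not tested. The smooth muscle covariate given there mostly sets Mthfd1S+/- mouse 2 (0.44) apart from the other mice. It therefore cannot tell muscle content from that mouse. Of the T and NK cell genes, 8 lay in the brighter part of the tested rows, at or above the median level. No detection calls were used, and a gene near the floor of the array may be read as background. The dimmest member was Gzma, at percentile 10.2 of the levels of all tested rows, and Cd8a stood at percentile 26.7. Between them lay Cd27, Gzmb, Klrk1, Ctla4, Klrd1, Ncr1 and Ifng, at percentiles 18.1 to 25.5. Tigit stood just above, at percentile 28.3.

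None of the 32 genes passed an adjusted p of 0.05 in limma, and 0% of all rows did (0 of 23521, smallest adjusted p 0.837). Foxp3 was the only member at an unadjusted p under 0.05, where 5.79% of all rows stood (2.44% lower and 3.36% higher). Of the members, 19 were lower and 13 higher in Mthfd1S+/- mucosa, against 46.0% lower among all rows. The median difference was -0.040 over the members and 0.012 over all rows. The member median was -0.0077 after quantile normalization, -0.013 after median centring and -0.0037 without WT mouse 3. In all, 0 members were at least 1.5-fold apart, against 0.459% of all rows. In 4 members the groups did not overlap (Foxp3, Tigit and Prf1 lower, Icos higher), and 14.0% of all rows had such a gap, 6.04% lower and 7.96% higher. In this bulk tissue, fewer cells of a type and less RNA per cell cannot be told apart.

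**Figure D1:**
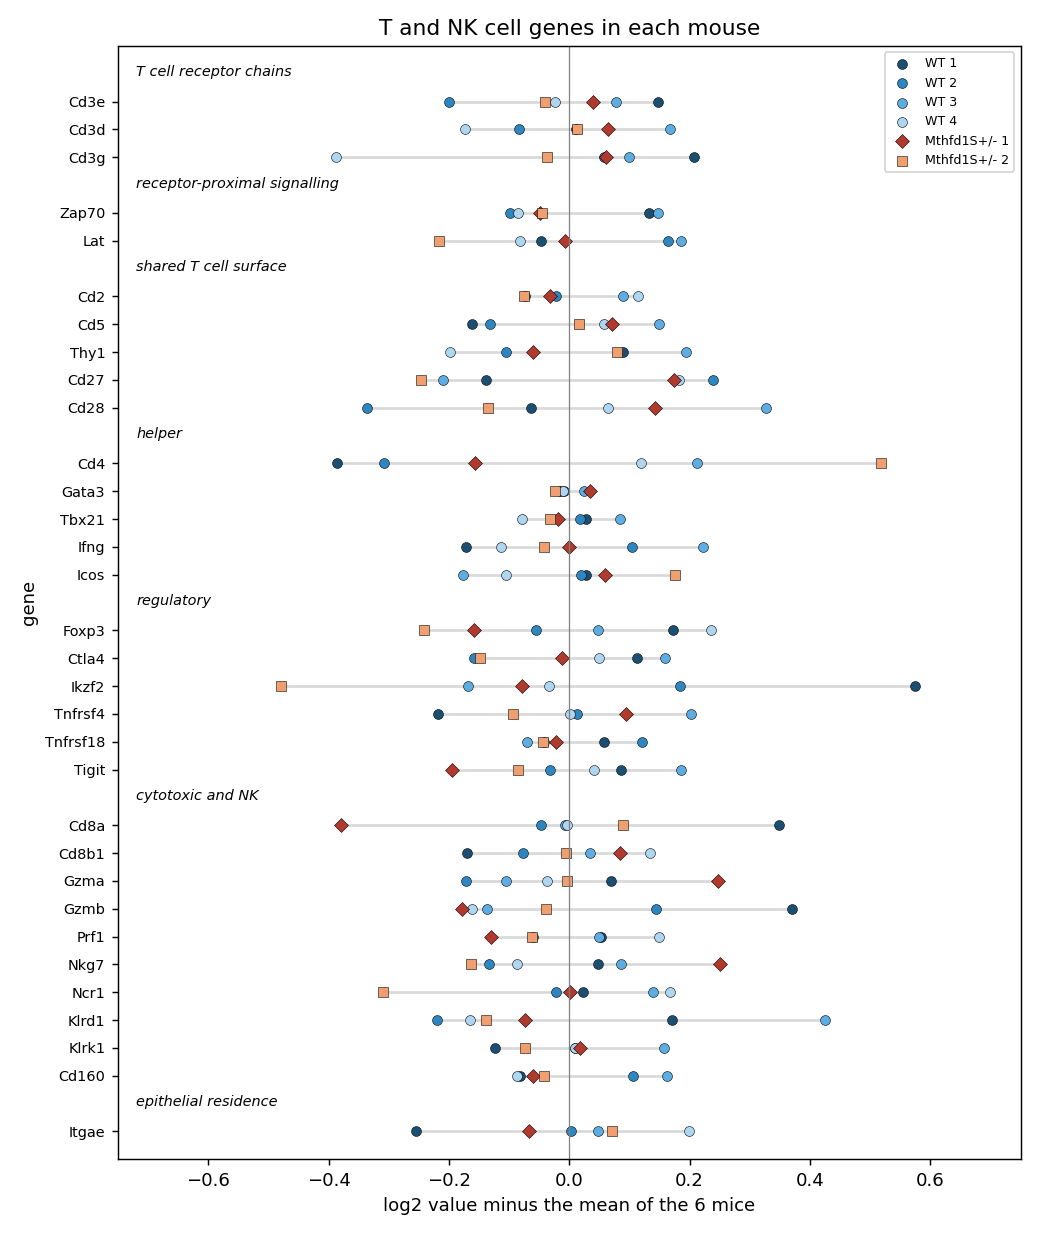
Log2 value of each of the 32 genes in each mouse, as the distance from that gene's mean over the 6 mice; circles are WT mice and the diamond and square are Mthfd1S+/- mice 1 and 2. Ikzf2 and Cd4 have the widest spread, while Gata3 has almost none.

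The receptor chains showed no gap between the genotypes. Cd3e, Cd3d and Cd3g encode the epsilon, delta and gamma chains of CD3. Taking the mice by replicate number, Cd3e read 7.01, 6.66, 6.94 and 6.84 in the WT group and 6.90 and 6.82 in the Mthfd1S+/- group. Both Mthfd1S+/- values lay inside the WT range, and the 95% interval of the difference was -0.25 to 0.25. Cd3d differed by 0.058 ± 0.11 (SE) and Cd3g by 0.018 ± 0.16, each with Mthfd1S+/- values inside the WT range. WT mouse 4 read low for Cd3g, at 5.24, below the 5.69 to 5.84 of WT mice 1 to 3.

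Receptor-proximal signalling was represented by Zap70, the kinase that docks on the phosphorylated chains, and by Lat, the membrane scaffold it phosphorylates. Zap70 averaged 5.67 ± 0.13 (SD, n = 4) over the WT mice and 5.60 ± 0.0018 (SD, n = 2) over the Mthfd1S+/- mice. Lat read 5.53, 5.74, 5.76 and 5.49 in WT mice and 5.57 and 5.36 in Mthfd1S+/- mice. Its lowest value was that of Mthfd1S+/- mouse 2, while mouse 1 lay among the WT mice (difference -0.17 ± 0.11 SE, adjusted p 0.885 in limma). Without mouse 2 the difference was -0.062, and without mouse 1 it was -0.27.

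Surface proteins that most T cells share showed no gap between the genotypes. The 5 genes were Cd2 (adhesion), Cd5 (a brake on receptor signalling), Thy1, and the costimulatory receptors Cd27 and Cd28. Their differences ran from -0.081 for Cd2 to 0.065 for Cd5, and 3 were higher and 2 lower. Cd28 varied among WT mice, from 5.82 in mouse 2 to 6.49 in mouse 3, a wider span than the 6.02 and 6.30 of the Mthfd1S+/- mice.

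Regulatory genes lay lower in Mthfd1S+/- mucosa in 5 of 6, with a median difference of -0.17, and 0 of the 6 passed the adjusted test. Foxp3, the defining transcription factor of regulatory T cells (transcript cluster 17532811), read 6.19, 5.96, 6.07 and 6.26 in WT mice and 5.86 and 5.78 in Mthfd1S+/- mice. All 4 WT values lay above both Mthfd1S+/- values. Means were 6.12 ± 0.13 (SD, n = 4) and 5.82 ± 0.059 (SD, n = 2), a difference of -0.30 ± 0.10 (SE), or 1.23-fold. The 95% interval was -0.54 to -0.064, with an unadjusted p of 0.0186 and an adjusted p of 0.837 in limma. The exact two-sided permutation p was 0.133. In limma the unadjusted p was 0.0666 with the replicate number as a block, 0.0723 within the mice whose identifier starts with the letter B rather than A (3 WT and 1 Mthfd1S+/-) and 0.100 without Mthfd1S+/- mouse 2. The last of these, like the fit within letter B, has a lone Mthfd1S+/- mouse that is assumed to vary like the WT mice. The block fit rests on mice 1 and 2 of each genotype, since replicate numbers 3 and 4 are WT only.

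Tigit, an inhibitory receptor of regulatory, exhausted and NK cells, read 4.95, 4.84, 5.06 and 4.91 in WT mice and 4.67 and 4.78 in Mthfd1S+/- mice. Here too the groups did not overlap, and the difference was -0.21 ± 0.09 (SE, adjusted p 0.837 in limma). Ikzf2 encodes Helios, a transcription factor common in thymus-derived regulatory T cells. It had the widest gap between means, at 5.85, 5.46, 5.11 and 5.24 in WT mice and 5.20 and 4.80 in Mthfd1S+/- mice. Mthfd1S+/- mouse 1 lay within the WT range, WT mouse 1 stood highest, and the difference was -0.42 ± 0.20 (SE, adjusted p 0.849 in limma). Without WT mouse 1 it was -0.27, and without Mthfd1S+/- mouse 2 it was -0.22. With the smooth muscle list mean as a covariate the Ikzf2 difference was -0.12, and those of Foxp3 and Tigit were -0.33 and -0.28. That covariate mostly sets Mthfd1S+/- mouse 2 apart, so these values do not tell which differences go with muscle content.

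The other regulatory genes were closer together. Ctla4, which competes with CD28 for its ligands, had a difference of -0.12 ± 0.11 (SE), which ran from -0.19 without Mthfd1S+/- mouse 1 or WT mouse 2 to -0.052 without Mthfd1S+/- mouse 2. Tnfrsf4 (OX40) and Tnfrsf18 (GITR) are costimulatory receptors that regulatory T cells carry at high level. Tnfrsf4 stood at 5.87 in both groups, and Tnfrsf18 averaged 6.00 ± 0.089 (SD, n = 4) over the WT mice and 5.95 ± 0.015 (SD, n = 2) over the Mthfd1S+/- mice.

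**Figure D2:**
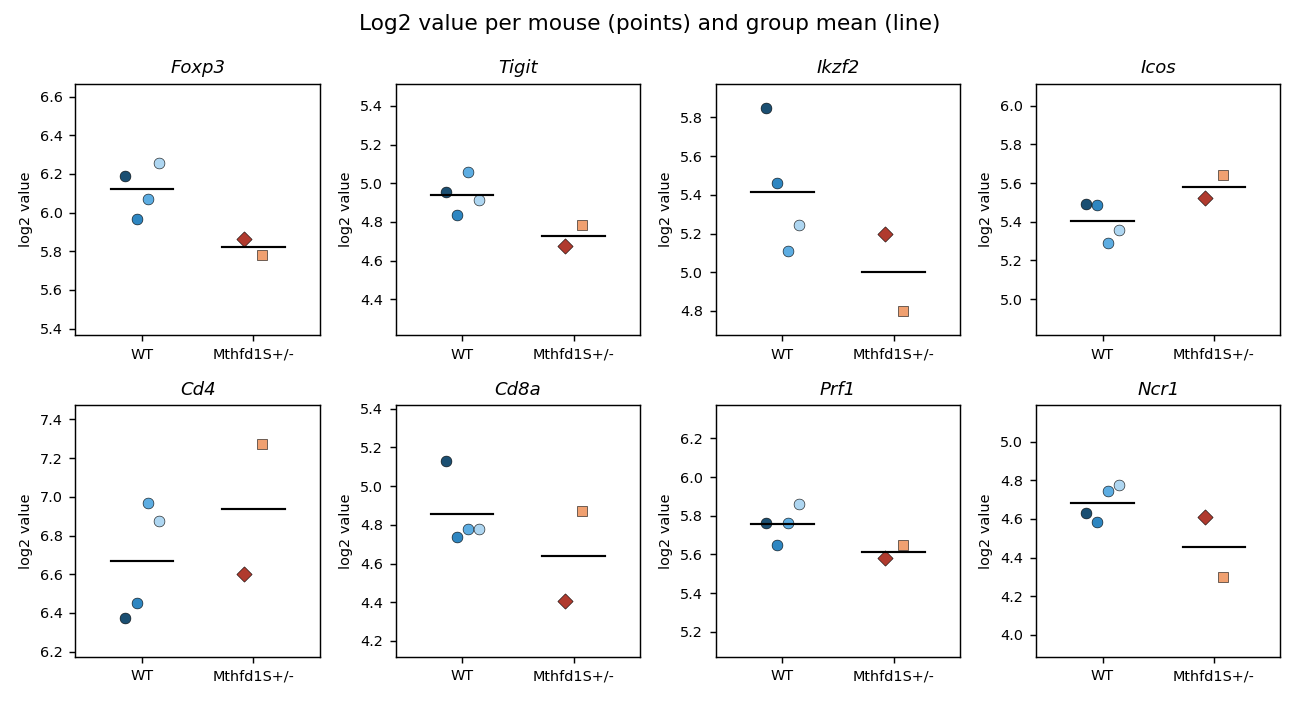
Log2 values of 8 genes in each mouse, with a line at each group's mean; every panel spans the same distance on the log2 axis. Foxp3, Tigit and Prf1 have all WT points above the Mthfd1S+/- points, Prf1 by a hair, Icos has the reverse, and in Cd4 and Cd8a the Mthfd1S+/- mice lie far apart from each other.

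Helper genes had a median difference of 0.0079, with 3 of 5 higher, and the sign of that median was not stable. It was -0.021 and -0.011 without Mthfd1S+/- mice 1 and 2 in turn, and -0.026 within letter B. Icos, a costimulatory receptor of activated helper and regulatory cells, read 5.49, 5.49, 5.29 and 5.36 in WT mice and 5.52 and 5.64 in Mthfd1S+/- mice. The groups did not overlap, although Mthfd1S+/- mouse 1 lay only just above the highest WT mice (difference 0.18 ± 0.095 SE, adjusted p 0.861 in limma). Tbx21 and Gata3, the factors that direct the type 1 and type 2 helper programs, differed by -0.038 ± 0.084 and 0.0079 ± 0.078 (SE). Ifng, the main cytokine of the type 1 program, differed by -0.031 ± 0.12 (SE), with its values spread over 4.55 to 4.94 in WT mice alone.

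Cd4, the co-receptor of helper and regulatory T cells and a surface protein of some macrophages, read 6.37, 6.45, 6.97 and 6.88 in WT mice and 6.60 and 7.27 in Mthfd1S+/- mice. Mthfd1S+/- mouse 2 was the highest of the 6 and mouse 1 lay inside the WT range. The difference was 0.27 ± 0.22 (SE, adjusted p 0.905 in limma), and -0.067 without Mthfd1S+/- mouse 2. Cd4 and the smooth muscle list shared their extremes, with WT mice 1 and 2 lowest on the list at -0.18 and -0.26 and Mthfd1S+/- mouse 2 highest at 0.44. The same mice were the extremes of the fibroblast list, at -0.15, -0.29 and 0.27. They were those of the neuron and glia list too, at -0.21, -0.36 and 0.33. With the smooth muscle list mean as a covariate the Cd4 difference was -0.16. That covariate mostly sets Mthfd1S+/- mouse 2 apart, and what Cd4 shares with these lists was not tested.

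Cytotoxic and NK genes lay lower in 7 of 10, with a median difference of -0.11 (-0.033 without WT mouse 3). Prf1, which encodes the pore-forming perforin, read 5.76, 5.65, 5.76 and 5.86 in WT mice and 5.58 and 5.65 in Mthfd1S+/- mice. The gap between the groups was smaller than the rounding of these values, and the difference was -0.14 ± 0.089 (SE, adjusted p 0.870 in limma). Ncr1 encodes NKp46, a receptor that defines NK cells and some innate lymphoid cells. It read 4.63, 4.59, 4.75 and 4.78 in WT mice and 4.61 and 4.30 in Mthfd1S+/- mice, so that mouse 2 alone lay below the WT range (difference -0.23 ± 0.11 SE, and -0.077 without that mouse).

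The granzymes, proteases that enter a target cell through perforin, had differences of opposite sign. Gzmb read 4.60, 4.38, 4.10 and 4.07 in WT mice and 4.06 and 4.20 in Mthfd1S+/- mice, a difference of -0.16 ± 0.15 (SE), and -0.057 without WT mouse 1 or -0.093 without Mthfd1S+/- mouse 1. Gzma read 3.52, 3.28, 3.34 and 3.41 in WT mice and 3.70 and 3.45 in Mthfd1S+/- mice, a difference of 0.18 ± 0.11 (SE), and 0.057 without Mthfd1S+/- mouse 1 or 0.31 without mouse 2. Neither passed the test, and in both genes the groups overlapped.

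CD8 is built from an alpha chain (Cd8a) and a beta chain (Cd8b1), and cells between the epithelium often carry alpha without beta. Cd8a read 5.13, 4.74, 4.78 and 4.78 in WT mice and 4.40 and 4.87 in Mthfd1S+/- mice, with WT mouse 1 highest and Mthfd1S+/- mouse 1 lowest. Cd8b1 averaged 5.56 ± 0.13 (SD, n = 4) over the WT mice and 5.62 ± 0.064 (SD, n = 2) over the Mthfd1S+/- mice. The difference of Cd8a was -0.22 ± 0.16 (SE), and 0.016 without Mthfd1S+/- mouse 1. Nkg7, of cytotoxic granules, differed by 0.066 ± 0.13 (SE). The NK receptor genes Klrd1 (CD94) and Klrk1 (NKG2D) differed by -0.16 ± 0.17 and -0.041 ± 0.099 (SE). Without WT mouse 3 the Klrd1 difference was -0.035, and without WT mouse 2 it was -0.25. Cd160, a receptor of NK and intraepithelial T cells, differed by -0.076 ± 0.10 (SE). Itgae, the integrin chain that binds E-cadherin, spanned 5.96 to 6.41 over the WT mice, and the Mthfd1S+/- mice (6.15 and 6.29) lay inside that span.

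**Figure D3:**
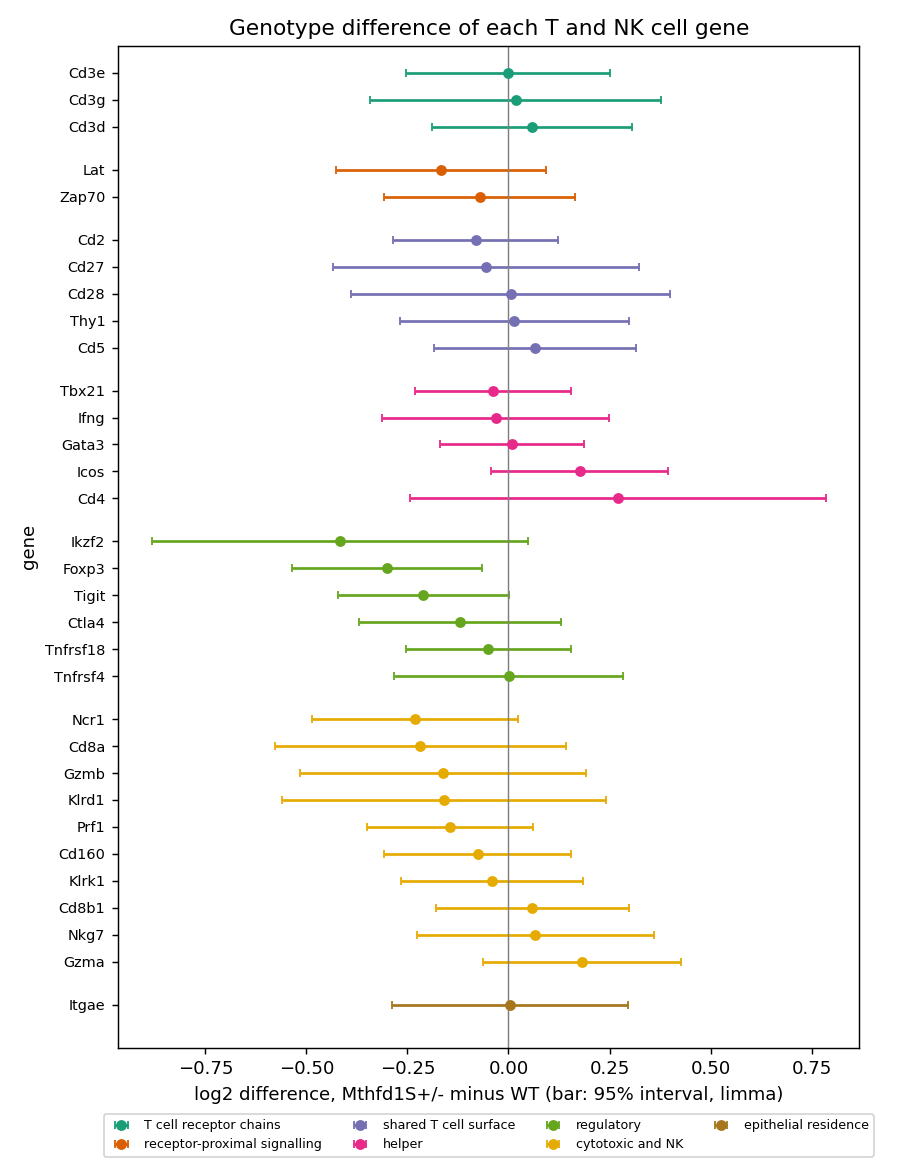
Difference in log2 value (Mthfd1S+/- minus WT) of each gene with its 95% interval from limma, coloured by role. The interval of Foxp3, -0.54 to -0.064, is the only one that leaves out 0 before adjustment.

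To set regulatory, helper and cytotoxic genes against each other within a mouse, 5 differences between pairs of genes were taken; only their change between mice has a meaning, since the rows of different genes have no common scale. Foxp3 minus Cd3e read -0.81, -0.69, -0.87 and -0.58 in WT mice and -1.04 in both Mthfd1S+/- mice. The WT values all lay above the Mthfd1S+/- values, and the difference between means was -0.30 (exact two-sided permutation p 0.133, adjusted over the 5 pairs 0.222). Foxp3 minus Cd4 differed by -0.57 (exact p 0.200, adjusted 0.250), by -0.19 without Mthfd1S+/- mouse 2 and by -0.950 without mouse 1. With the smooth muscle covariate it was -0.17. Cd8a minus Cd4 read -1.24, -1.71, -2.19 and -2.10 in WT mice and -2.20 and -2.40 in Mthfd1S+/- mice. It differed by -0.49 (exact p 0.133, adjusted 0.222), by -0.30 without WT mouse 1 and by -0.20 with the smooth muscle covariate. With the replicate block, which rests on mice 1 and 2 of each genotype, it was -0.82. Between the 2 mice of identifier letter A it was -0.96. The next pair holds Gzma, the dimmest member, which may be read as background. Gzma minus Cd8a differed by 0.40 (exact p 0.133, adjusted 0.222), by 0.041 without Mthfd1S+/- mouse 1 and by 0.76 without mouse 2. It was 0.62 with the smooth muscle covariate, 0.91 between the mice of letter A and -0.00730 within letter B. Ctla4 minus Cd28 differed by -0.13 (exact p and adjusted value 0.400), and between -0.20 and -0.057 with 1 mouse left out. With 4 arrays against 2 there are 15 splits, and no p under 0.0667 can be reached.

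Across mice, WT mouse 3 read highest in 14 of the 32 members, against 13.6% of all rows. Its mean over 8 pan-leukocyte markers, such as Ptprc, was also the highest, at 0.16 while the rest of the WT group read -0.14 to 0.061 and Mthfd1S+/- mice 1 and 2 read -0.021 and -0.040. Mthfd1S+/- mouse 2 read lowest in 8 members, against 19.1% of all rows. Without WT mouse 3, 16 of the 32 members were lower in Mthfd1S+/- mucosa. With the pan-leukocyte mean as a covariate the median difference over the members was -0.024, that of the regulatory genes -0.13, and the Foxp3 difference -0.28.

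Per mouse, the mean of the 6 regulatory genes was 0.13, 0.012, 0.060 and 0.042 in WT mice 1 to 4, each gene counted from its own mean over the 6 mice. It was -0.062 and -0.18 in Mthfd1S+/- mice 1 and 2. The helper mean was -0.10, -0.035, 0.073 and -0.038 in WT mice and -0.017 and 0.12 in Mthfd1S+/- mice. The cytotoxic and NK mean was 0.071, -0.047, 0.081 and -0.0076 in WT mice and -0.022 and -0.075 in Mthfd1S+/- mice. The groups did not overlap in the regulatory mean, and they did in the helper and the cytotoxic and NK means. The regulatory mean takes in Foxp3 and Tigit, whose groups were apart as single genes, and Ikzf2, which had the widest difference. Its gap is therefore not separate from those values, and Ctla4, Tnfrsf4 and Tnfrsf18 each overlapped. Of all single rows, 14.0% had a gap between the groups, and no such share was taken over lists. The epithelial marker mean had a gap too, at 0.0018 to 0.039 in WT mice and -0.0066 and -0.073 in Mthfd1S+/- mice. The mean of 13 further regulatory T cell genes, described below, overlapped. It was -0.019, -0.097, 0.080 and 0.0026 in WT mice and 0.019 and 0.014 in Mthfd1S+/- mice.

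**Figure D4:**
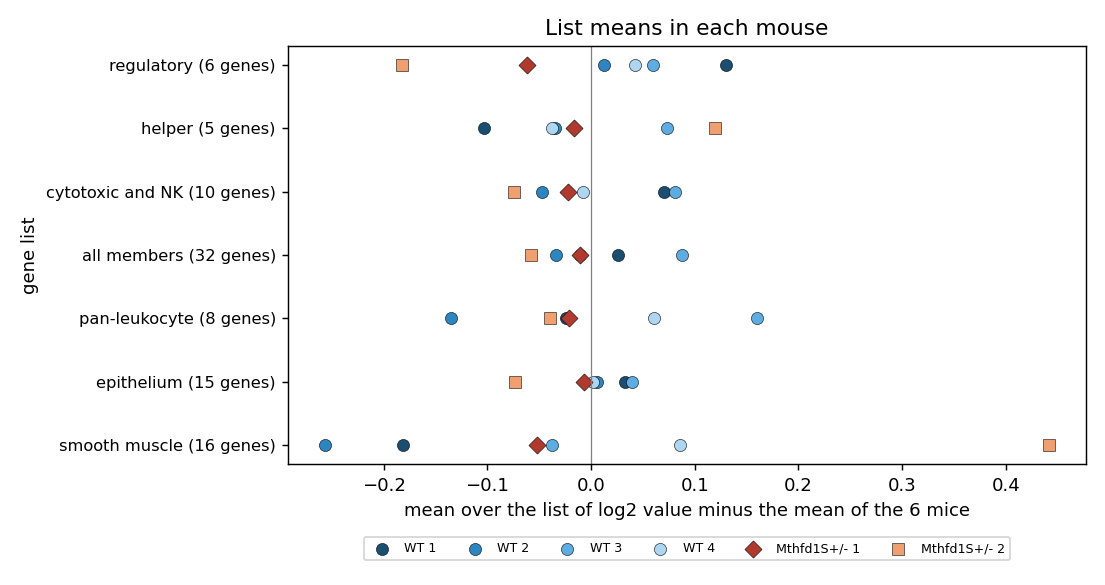
Mean over each gene list in each mouse, with every gene counted from its own mean over the 6 mice. The regulatory list, which includes Foxp3 and Tigit, has both Mthfd1S+/- mice below all WT mice, while the smooth muscle list sets Mthfd1S+/- mouse 2 apart at 0.44.

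Other genes of T and NK cell function were taken from 7 lists, with 127 of 139 genes measured. Of these, 66 were higher and 61 lower, where 54.0% of all rows were higher. At an unadjusted p under 0.05 stood 7 of the 127, 3 higher and 4 lower, a share near the 5.79% of all rows, and 0 passed the adjusted test in limma. The 7 are given as values only. Fyb, an adaptor downstream of the receptor, had a difference of -0.27 ± 0.094 (SE), and Dgka, a diacylglycerol kinase that damps the signal, -0.25 ± 0.098. Dgka averaged 11.2 over the WT mice, close to the epithelial marker Cdh1 at 11.5, where Cd3e averaged 6.86. Which cells of the mucosa its signal came from was not tested. Cd96, a receptor that shares a ligand with TIGIT, had -0.23 ± 0.096, and Gpr55, a lipid receptor of gut lymphocytes, -0.30 ± 0.12. Higher in Mthfd1S+/- mucosa were Satb1, a chromatin organiser of T cells (0.40 ± 0.12), Tox, a factor of exhausted T cells (0.24 ± 0.084), and Ccr8, a chemokine receptor of tissue regulatory T cells (0.23 ± 0.089). Tox averaged 7.54 over the WT mice, also above Cd3e. Which cells the signals of Tox and Satb1 came from was not tested either. Without Mthfd1S+/- mouse 2, Satb1 had 0.22 and Dgka -0.12, and without Mthfd1S+/- mouse 1, Dgka had -0.39 and Cd96 -0.13. Of the 13 further regulatory T cell genes measured, 8 were higher and 5 lower, with a median of 0.029. Of the 26 further cytotoxic and NK genes measured, 19 were higher and 7 lower, with a median of 0.045. Antigen receptor signalling had 10 higher and 14 lower of 24, checkpoint and costimulation genes 7 higher and 14 lower of 21, and helper and innate lymphoid genes 14 higher and 9 lower of 23. Genes of naive and circulating T cells had 5 higher and 3 lower of 8, and those of gut homing and residence 3 higher and 9 lower of 12.

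Promoter windows from the RefSeq tables (build GRCm38.p6, 250 bases before to 50 after a start site, 300 in all) were found for 23 of the 32 members, 28 windows in total. The letters TGTGGT, the core that RUNX factors bind, were searched on both strands and stood in 12 of the 28 windows (42.9%), against 16.8% of 32851 windows of all genes. These 12 windows belong to 10 members, since Cd160 and Ncr1 have 2 each, and those of Ncr1 overlap almost wholly. The share over all genes is by window, so the counts by gene that follow have no such share beside them. By role, 7 of the 8 cytotoxic and NK genes with a window held them (Cd160, Gzma, Gzmb, Klrk1, Ncr1, Nkg7 and Prf1, but not Cd8a), 1 of 5 regulatory genes (Tigit) and 0 of 3 helper genes. AGGAAG, an ETS factor core, stood in 13 of 28 member windows (46.4%) against 35.4% of all. The GATA factor core, AGATAA, stood in 3 windows against 11.2% of all. The NFAT core, GGAAAA, stood in 7 against 23.4%. The AP-1 core, TGANTCA, stood in 2 against 7.81%. The forkhead core, GTAAACA, which FOXP3's family binds, stood in 0 against 3.65%. These motifs were chosen after the values were seen, a match is a description of letters, and in the member windows no ETS match overlapped a RUNX match. Runx3, the RUNX factor of cytotoxic cells, had a difference of -0.18 ± 0.098 (SE, adjusted p 0.861 in limma) and -0.061 without Mthfd1S+/- mouse 1. Any tie between Runx3 and the genes with RUNX letters was not tested. Printed here, chosen after their values and matches were seen, are windows of Foxp3 and Tigit, whose groups did not overlap, and of cytotoxic and NK genes with RUNX letters (Prf1, Ncr1, Gzmb) and without them (Cd8a); windows of other lower members, such as Lat and Ctla4, are not shown. Capitals stand on TGTGGT or its reverse complement ACCACA and on AGGAAG or its reverse complement CTTCCT.
Foxp3 promoter, chrX:7580233-7580532, strand +: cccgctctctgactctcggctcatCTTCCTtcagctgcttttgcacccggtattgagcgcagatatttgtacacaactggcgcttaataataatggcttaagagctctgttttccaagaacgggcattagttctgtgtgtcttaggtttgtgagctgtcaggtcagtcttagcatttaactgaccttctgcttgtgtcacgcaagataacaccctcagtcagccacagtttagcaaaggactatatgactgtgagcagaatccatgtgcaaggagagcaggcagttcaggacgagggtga
Tigit promoter, chr16:43664135-43664434, strand -: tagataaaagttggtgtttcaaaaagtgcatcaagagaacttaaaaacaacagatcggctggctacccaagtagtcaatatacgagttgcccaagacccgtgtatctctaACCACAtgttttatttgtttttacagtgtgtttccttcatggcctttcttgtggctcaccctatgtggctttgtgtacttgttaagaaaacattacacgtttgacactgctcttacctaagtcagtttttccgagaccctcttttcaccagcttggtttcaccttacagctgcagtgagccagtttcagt
Prf1 promoter, chr10:61297586-61297885, strand +: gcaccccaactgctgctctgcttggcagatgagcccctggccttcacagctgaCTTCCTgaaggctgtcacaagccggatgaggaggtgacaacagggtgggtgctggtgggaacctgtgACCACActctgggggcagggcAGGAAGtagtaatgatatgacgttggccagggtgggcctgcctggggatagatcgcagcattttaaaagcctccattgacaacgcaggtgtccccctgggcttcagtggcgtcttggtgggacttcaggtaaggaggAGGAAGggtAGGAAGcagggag
Ncr1 promoter, chr7:4337465-4337764, strand +: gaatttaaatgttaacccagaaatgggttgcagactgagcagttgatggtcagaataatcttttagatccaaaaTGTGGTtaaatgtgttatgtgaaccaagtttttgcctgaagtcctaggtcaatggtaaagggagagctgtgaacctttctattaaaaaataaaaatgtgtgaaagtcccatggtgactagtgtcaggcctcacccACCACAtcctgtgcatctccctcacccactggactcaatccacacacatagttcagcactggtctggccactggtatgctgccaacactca
Gzmb promoter, chr14:56262285-56262584, strand -: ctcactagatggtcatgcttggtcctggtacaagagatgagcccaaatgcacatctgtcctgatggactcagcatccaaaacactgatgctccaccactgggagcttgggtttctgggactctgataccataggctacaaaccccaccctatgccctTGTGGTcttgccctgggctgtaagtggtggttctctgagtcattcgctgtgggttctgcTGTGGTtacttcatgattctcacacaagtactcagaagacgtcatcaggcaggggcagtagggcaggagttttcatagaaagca
Cd8a promoter, chr6:71373177-71373476, strand +: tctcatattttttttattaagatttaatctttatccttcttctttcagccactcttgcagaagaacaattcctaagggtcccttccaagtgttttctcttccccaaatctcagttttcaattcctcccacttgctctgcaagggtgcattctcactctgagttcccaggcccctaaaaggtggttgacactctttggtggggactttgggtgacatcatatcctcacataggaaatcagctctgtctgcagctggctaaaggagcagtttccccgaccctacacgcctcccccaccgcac
The Foxp3 window has an ETS match and no RUNX match, and the other Foxp3 window in the table has neither. Prf1 has 4 ETS matches and 1 RUNX match, Tigit has 1 RUNX match, and Ncr1 and Gzmb have 2 RUNX matches each, these 3 windows with no ETS match. The Cd8a window has no match to any motif searched.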

How the data were processed

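The deposited table holds log2 expression values for 41345 transcript clusters (rows) on 6 arrays, for which the submitters' processing notes name Affymetrix Expression Console. The software version, genome build and summarisation method were not given in the sources used here, and the log2 scale was judged from values of 1.06 to 13.5. The platform table gave 1 symbol for 23521 rows, several for 1814 and none for 16010. Rows with 1 symbol were fitted together with limma 3.58.1 in R 4.3.3 (lmFit, eBayes, no covariate, two-sided, 4 residual and 4.35 prior degrees of freedom), with Benjamini-Hochberg adjustment over all 23521 and a threshold of 0.05. Pairs of genes were compared by an exact permutation test. The fit was tested on simulated data. The median standard error of a difference was 0.106, and precision is limited by having 6 arrays.

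The members and lists were chosen with earlier results of these data known. All members could be named; of each other list, up to 3 genes with the smallest p, and markers that check the tissue. Per the labels, replicates are biological, and each carries its own mouse identifier. Alternatives covered scaling, rows, moderation, covariates, the replicate number as a block, the first letter (A or B) of the mouse identifier, and leaving out each array.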

Additional observations from a re-analysis of the deposited data

Results flagged for a closer look

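Among the 4 WT mice, Cd8a in WT mouse 1 (5.13) stood apart from the other 3 (4.74 to 4.78), with a gap that made up 0.889 of the whole WT range, above Dixon's 95% critical value for 4 samples. Gata3 in WT mouse 3 did so as well, with a gap of 0.834 of a range that ran only from 5.84 to 5.88. Chance gives such a gap in about 1 in 20 groups. It was seen in 2 of the 32 members and in 4.92% of all tested genes' rows.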

How the results depend on the processing

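Foxp3 kept its sign in all 19 alternatives, from -0.35 to -0.25, and no member passed an adjusted p of 0.05 in the 18 that give a p. Since all WT values of Foxp3 lay above both Mthfd1S+/- values, leaving out a mouse or keeping 1 identifier letter could not turn its sign. Settings that changed only the rows fitted or the moderation left its difference at -0.30. Identifier letter A holds 1 WT and 1 Mthfd1S+/- mouse, so it gives values with no test; letter B holds 3 and 1, and there, as without a Mthfd1S+/- mouse, the lone mouse is assumed to vary like the WT mice. With 4 and 2 mice and no detection calls, small differences and low levels are poorly resolved, and the causes of the changes below were not tested. Limited to the brighter part of the genes, 3 members of 8 were lower, against 47.8% of the rows kept. There the helper median was 0.27 and the cytotoxic median 0.066, each the value of the 1 gene left (Cd4 and Nkg7). The pathway count at an unadjusted p under 0.05 in limma was 4 in that setting, where 5.74% of the rows stood. Fewer than the 127 pathway genes remain there, so this count is not comparable with the 7 above. With the second row of Gata3 the helper median was 0.093. Members at an unadjusted p under 0.05 numbered 2 with the smooth muscle covariate (4.99% of all rows), 2 with the pan-leukocyte covariate (6.76%), 3 with the identifier letter as a covariate (7.83%) and 2 within letter B (7.38%), and 1 to 4 with 1 mouse left out (4 without Mthfd1S+/- mouse 1, where 8.21% of all rows stood). The pathway count was 2 with the smooth muscle covariate, 14 within letter B, and 4 (without WT mouse 3, with 5.38% of all rows) to 12 (without Mthfd1S+/- mouse 1) with 1 mouse left out. Within letter A the median was 0.026 over the members and -0.000943 over the cytotoxic genes, which ranged from -0.11 to -0.033 with 1 mouse left out. Gzma minus Cd8a was -0.00730 within letter B and 0.91 between the mice of letter A.

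Same-numbered mice had correlated deviations of 0.117 and -0.044, so the numbers were not taken as pairs. The replicate block still compares only mice 1 and 2 of each genotype, since numbers 3 and 4 are WT only. It leaves few residual degrees of freedom. With the replicate block, 3 of 32 members stood at an unadjusted p under 0.05 (Cd4, Ikzf2 and Gzmb), a share near the 9.91% of all rows, and the sign turned for Cd3e (0.026), Cd3g (-0.12), Ifng (0.012) and Klrk1 (0.029).

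Signs also turned for Cd3e (0.022) and Klrk1 (0.0048) after quantile normalization, and for Cd3e (0.026) after median centring. With the identifier letter they turned for Cd3g (-0.034), Cd28 (-0.0097) and Ifng (0.00084), and with the pan-leukocyte covariate for Cd3e (0.033) and Cd3g (-0.00065). With the smooth muscle covariate they turned for Thy1 (-0.014), Cd27 (0.11), Cd28 (-0.028), Cd4 (-0.16), Tnfrsf18 (0.013) and Itgae (-0.14). Within letter A they turned for Cd3g (-0.15), Lat (0.040), Cd2 (0.040), Thy1 (-0.15), Cd27 (0.31), Ifng (0.17), Klrk1 (0.14) and Cd160 (0.021). Within letter B they turned for Cd3e (0.0082), Cd5 (-0.0088), Cd28 (-0.15), Gata3 (-0.026), Tnfrsf4 (-0.17), Cd8a (0.11), Cd8b1 (-0.036), Gzmb (0.013), Nkg7 (-0.12) and Itgae (-0.012).

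With 1 mouse left out, ranges that crossed 0 were -0.068 to 0.048 (Cd3e), -0.11 to 0.089 (Cd3g), -0.055 to 0.084 (Thy1), -0.27 to 0.16 (Cd27), -0.13 to 0.14 (Cd28), -0.067 to 0.61 (Cd4), -0.021 to 0.037 (Gata3), -0.092 to 0.039 (Ifng), -0.094 to 0.095 (Tnfrsf4), -0.45 to 0.016 (Cd8a), -0.14 to 0.27 (Nkg7), -0.087 to 0.0067 (Klrk1) and -0.081 to 0.073 (Itgae).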

Other observations

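Several members lie side by side on a chromosome in the RefSeq gene table, so their values can be read as neighbours. Cd28, Ctla4 and Icos follow each other on chromosome 1 with 0 protein-coding genes between Cd28 and Ctla4 and 0 between Ctla4 and Icos, and their differences were 0.0056, -0.12 and 0.18. Cd8b1 and Cd8a adjoin on chromosome 6, at 0.059 and -0.22. Tnfrsf4 and Tnfrsf18 adjoin on chromosome 4, at 0.00031 and -0.050, and Klrd1 and Klrk1 on chromosome 6, at -0.16 and -0.041. The CD3 genes lie together on chromosome 9 and differed by 0.018 (Cd3g), 0.058 (Cd3d) and -0.00099 (Cd3e). None of these values passed the adjusted test in limma, and the contrast between neighbours was not tested.

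The further row of Gata3 read 5.37, 5.51, 5.49 and 5.44 in WT mice and 5.48 and 5.61 in Mthfd1S+/- mice, a difference of 0.093, where its brightest row had 0.0079. Of 8 pan-leukocyte markers, 4 were higher and 4 lower in Mthfd1S+/- mucosa. Cd52 and Cd53, surface proteins of most leukocytes named here after their values were seen, had differences of -0.25 ± 0.093 (SE) and -0.17 ± 0.096. For both the groups did not overlap, and 6.04% of all rows had such a gap on the lower side. Ptprc (CD45) had values of 7.34 to 7.81 in WT mice and 7.46 and 7.53 in Mthfd1S+/- mice, and Itgal differed by -0.033. The higher markers were Rac2 (0.19 ± 0.12 SE), Laptm5 (0.047 ± 0.11), Coro1a (0.0015 ± 0.11) and Itgb2 (0.0012 ± 0.12).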
